A study of Mus musculus with 6 samples.

Results

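Cells carrying transcripts of the CD3 genes made up 1656 of the 60671 cells that passed the filters, 2.73% (95% exact binomial interval 2.60 to 2.86). A cell was taken as Cd3-expressing when it held at least 2 unique molecular identifiers (UMIs, each counting 1 captured RNA molecule) of Cd3d, Cd3e and Cd3g together and at most 1 UMI of Col1a1, Col1a2, Col3a1 and Sparc together, the latter being genes of the stromal feeder cells. Cells of all 6 libraries entered, provided that 200 genes or more were seen, that total UMIs did not exceed 2000 and that mitochondrial genes gave no more than 30% of them. Levels of the Cd3 genes therefore chose the cells and are given below as a description.

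The cells came from bone marrow progenitors enriched for CD117 (Kit) and cultured on OP9-DL1, a bone marrow stromal line that presents the Notch ligand Delta-like 1. Progenitors were sorted as lineage-negative DN1 (CD44+CD25-), DN2a (CD44+CD25+Bcl11b-) or DN2b (CD44+CD25+Bcl11b+) cells, the lineage antibodies including one against CD3ε. They were cultured again for 4 days with Flt3-L, IL-7, IL-2, SCF and IL-15. Fixed material was then profiled by sci-RNA-seq3, in which combinatorial indexing in wells, rather than droplets, tells single cells apart. WT cells came from C57BL/6 Bcl11b YFP/YFP mice and ΔTE cells from mice that also lacked, on both alleles, the distal enhancer that sets when Bcl11b is activated, so the groups share the fluorescent reporter knocked into Bcl11b. Mice were 2 to 4 months old, males and females were combined, and 6 to 8 mice were pooled. Each of the 6 combinations of genotype and starting population was 1 library of 3 reverse-transcription wells, and these wells are technical repeats. Cells of 1 library are not replicates, so each combination has 1 value, and every interval below covers counting error only. The 1 genotype test given, on the share of Cd3-expressing cells, pairs the WT and ΔTE libraries of a start, and a model of genotype and start across genes was not run.

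CD3γ, CD3δ and CD3ε are the invariant chains that carry the pre-T cell receptor and the T cell receptor to the cell surface and pass their signals inwards. They are first transcribed while progenitors still hold other fates, in cells that receive Notch signals and switch on Bcl11b, and their protein reaches the surface only with a rearranged receptor chain. Innate lymphoid cells (ILCs) and natural killer (NK) cells share many of the early steps, and ILC precursors are marked by the transcription factor PLZF, encoded by Zbtb16.

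In the mouse genome assembly GRCm38 the 3 genes stood side by side on chromosome 9. Cd3g (ENSMUSG00000002033) spanned chr9:44969572-44980431 on the minus strand, Cd3d (ENSMUSG00000032094) chr9:44981786-44987339 on the plus strand and Cd3e (ENSMUSG00000032093) chr9:44998740-45009627 on the minus strand. Cd3d and Cd3g were thus divergently transcribed from starts 1355 bases apart, with the Cd3e start 29196 bases from that of Cd3g. The sequences upstream of these starts are shown because the 3 genes that define the cells differ widely in their UMIs. Each line gives 250 bases of RefSeq sequence (GRCm38.p6) in the gene's direction of transcription, 5′ to 3′, ending just before the RefSeq start, with every CANNTG in capitals, the E-box letters recognised by E proteins such as those encoded by Tcf3 and Tcf12.
Cd3g, chr9:44980432-44980681, minus strand: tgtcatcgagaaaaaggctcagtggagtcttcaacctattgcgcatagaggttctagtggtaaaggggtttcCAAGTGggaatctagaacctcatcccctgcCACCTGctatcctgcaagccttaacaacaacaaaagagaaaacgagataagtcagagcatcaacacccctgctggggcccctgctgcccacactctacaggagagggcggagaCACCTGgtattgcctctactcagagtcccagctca
Cd3d, chr9:44981536-44981785, plus strand: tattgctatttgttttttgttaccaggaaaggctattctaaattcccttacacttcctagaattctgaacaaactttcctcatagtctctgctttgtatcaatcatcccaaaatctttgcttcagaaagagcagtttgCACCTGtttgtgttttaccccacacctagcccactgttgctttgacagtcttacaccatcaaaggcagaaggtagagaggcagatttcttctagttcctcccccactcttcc
Cd3e, chr9:45009612-45009861, minus strand: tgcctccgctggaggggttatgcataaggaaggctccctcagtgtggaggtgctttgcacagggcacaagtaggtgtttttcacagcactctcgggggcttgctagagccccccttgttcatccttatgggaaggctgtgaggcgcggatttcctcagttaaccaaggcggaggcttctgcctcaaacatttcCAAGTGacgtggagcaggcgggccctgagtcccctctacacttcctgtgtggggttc
The Cd3g window held 3 E-boxes, against 1 each upstream of Cd3d and Cd3e. Of 32851 such windows in the mouse genome, 66.2% had at least 1 E-box and 12.2% had 3 or more. The letters GGAA, the core of ETS factor sites, were found on either strand 2 times upstream of Cd3g, 6 times upstream of Cd3d and 5 times upstream of Cd3e, and in 93.4% of all windows. A match to GATAA, letters bound by Gata3 and its relatives, was present 1 time, in the Cd3g window, and in 22.6% of all windows. The letters TGTGGT, bound by RUNX factors, were in 0 of the 3 windows and in 14.0% of all. A match of letters is a description and not evidence of binding.

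Most of the Cd3 signal was Cd3g. In the Cd3-expressing cells Cd3g gave 3758 UMIs (85.9% of the Cd3 UMIs), Cd3d 385 (8.80%) and Cd3e 233 (5.32%). Per kilobase of gene span, introns included, this was 346 UMIs for Cd3g, 69.3 for Cd3d and 21.4 for Cd3e. The order was the same in the cells with 1 Cd3 UMI, where Cd3g made up 78.8%, Cd3d 13.3% and Cd3e 7.82%. Cd3g was the only Cd3 gene seen in 1185 cells (71.6%), Cd3d and Cd3g were seen together in 248 (15.0%), and at least 2 of the 3 genes were seen in 432 (26.1%). The Cd3g share was 92.0% in WT DN1, 86.9% in WT DN2a and 82.8% in WT DN2b, and 88.3%, 86.5% and 84.0% in the corresponding ΔTE libraries.

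The rule admitted cells just over its limit more often than not. Exactly 2 Cd3 UMIs were found in 1011 cells (61.1%), 3 in 392 and 4 or more in 253, whereas 3237 cells held 1 Cd3 UMI and stayed outside, and 37 cells with 2 or more were lost to the collagen and Sparc limit. The cells without any Cd3 UMI that passed the same limit, 52849 in number, are called Cd3-zero cells below. At these depths a cell with no Cd3 UMI may still express the genes. Cd3-expressing cells had a median of 492.5 UMIs, cells with 1 Cd3 UMI 439 and Cd3-zero cells 427, so depth moved with the Cd3 count.

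Total UMIs per library ran from 8007395 to 14555100, filtered cells from 3401 to 19489 and the median UMIs per filtered cell from 386 to 485, and 0 cell barcodes were shared between libraries. The WT DN2a library stood apart in its mitochondrial RNA. The median mitochondrial share of its Cd3-expressing cells was 14.2%, against 21.7% in ΔTE DN2a and 23.1 to 24.4% in the other 4 libraries, and the same was seen in Cd3-zero cells, at 13.1% against 20.7 to 23.7%. Values without the DN2a start are given beside the genotype counts and the genes described from them.

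The share of cells that met the rule was higher after a later start and lower in ΔTE from each of the 3 starts. Of the WT DN1 cells 117 of 10925 were Cd3-expressing, 1.07% (0.886 to 1.28), of the WT DN2a cells 679 of 19489, 3.48% (3.23 to 3.75), and of the WT DN2b cells 416 of 4968, 8.37% (7.62 to 9.18). In ΔTE the numbers were 31 of 10294 for DN1, 0.301% (0.205 to 0.427), 217 of 11594 for DN2a, 1.87% (1.63 to 2.14), and 196 of 3401 for DN2b, 5.76% (5.00 to 6.6). These exact (Clopper-Pearson) intervals did not overlap between genotypes within a start. On the log2 scale the ΔTE share stood at -1.83 (-2.40 to -1.26) relative to WT from DN1, -0.90 (-1.11 to -0.68) from DN2a and -0.54 (-0.78 to -0.30) from DN2b, so WT had a 3.56-fold, 1.86-fold and 1.45-fold higher share. Over the 3 starts as pairs the mean was -1.09 ± 0.67 (SD, n = 3), lower in 3 of 3, with a two-sided exact permutation p of 0.25 from swapping genotypes within starts, the smallest that 3 pairs allow. The test could thus not have given a smaller value, and no conclusion is drawn from it. Its mean includes the DN1 start, whose shares are set against a background below and not read as a genotype difference.

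**Figure D1:**
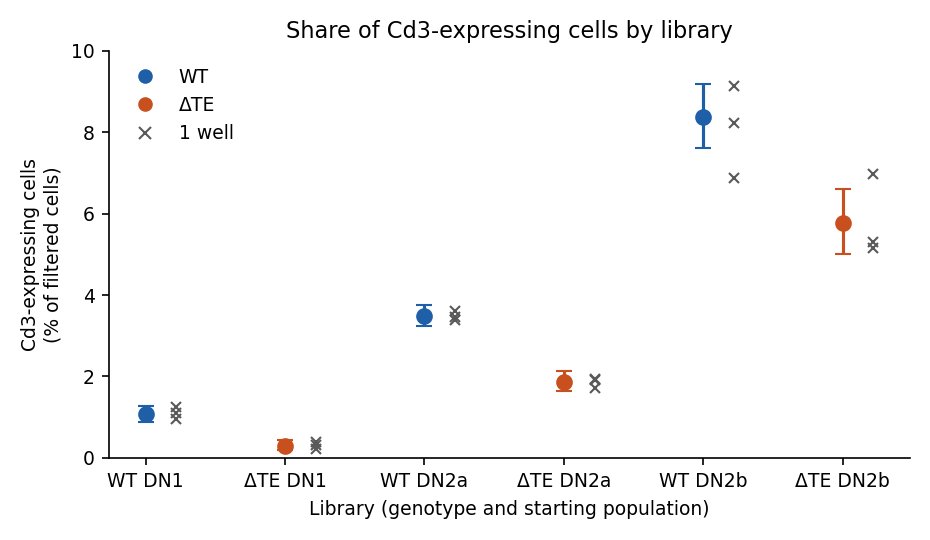
Percentage of filtered cells that were Cd3-expressing (y axis) in each of the 6 libraries (x axis), as the library value with its 95% exact interval and as the values of the 3 reverse-transcription wells. The share rises from DN1 to DN2b in both genotypes and is lower in ΔTE from each start, 0.301% against 1.07%, 1.87% against 3.48% and 5.76% against 8.37%.

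The reverse-transcription wells gave the same order. WT wells ranged from 0.944 to 1.24% for DN1, 3.38 to 3.61% for DN2a and 6.88 to 9.13% for DN2b, and ΔTE wells from 0.206 to 0.377%, 1.72 to 1.93% and 5.15 to 6.98%. Well ranges of the genotypes did not overlap for DN1 and DN2a, whereas for DN2b the highest ΔTE well lay above the lowest WT well. With each cell thinned to 300 UMIs and shallower cells left out (1254, 4532 and 552 of the WT cells and 1007, 1442 and 459 of the ΔTE cells, in the order DN1, DN2a, DN2b), 2 or more Cd3 UMIs remained in 0.434%, 2.19% and 4.17% of WT cells and in 0.164%, 1.00% and 3.15% of ΔTE cells. The order of the 6 values was thus the same at equal depth, but the DN2b intervals of WT (3.59 to 4.82) and ΔTE (2.54 to 3.85) then overlapped.

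A background share was taken from cells that should lack CD3. Of the feeder-type cells with 5 or more UMIs of Col1a1, Col1a2, Col3a1 and Sparc, 16 of 1622, 0.986% (0.565 to 1.60), held 2 or more Cd3 UMIs, at a median depth of 719 UMIs against 430 UMIs in the cells within the collagen and Sparc limit. Free RNA and doublets were not separated as sources of these UMIs. By library the feeder-type share was 0.826% in WT DN1 (1 of 121 cells), 1.28% in WT DN2a (12 of 934, 0.666 to 2.23), 0.513% in ΔTE DN2a (2 of 390, 0.0622 to 1.84) and 3.33% in ΔTE DN2b (1 of 30, 0.0844 to 17.2), and none was found in 90 cells of WT DN2b or 57 of ΔTE DN1, which allows shares of up to 4.02% and 6.27% by the exact interval. Among cells with 3 or more UMIs of 12 myeloid genes (Mpo, Prtn3, Elane, Ctsg, Csf1r, Cd300a, Lyz2, S100a8, S100a9, Ngp, Cybb and H2-Aa), 0 of 416 held 2 or more Cd3 UMIs (a share of up to 0.883%), at a median of 535 UMIs. Of these 416 cells, 232 were from WT DN1 and 157 from ΔTE DN1, where 0 cells allow shares of up to 1.58% and 2.32%. Most feeder-type cells were from DN2a, so the 2 backgrounds also differed in library. The DN1 shares of both genotypes were therefore not distinguishable from the feeder-type background at this depth, and they are not read as Cd3 expression or as a difference between genotypes from these counts alone. In WT DN2a and WT DN2b the shares among cells within the collagen limit, 3.81% (3.54 to 4.11) and 8.64% (7.86 to 9.47), lay above the background intervals of their own libraries or the limit that 0 cells allow, while for ΔTE DN2a, at 1.99% (1.73 to 2.27), and ΔTE DN2b, at 5.85% (5.08 to 6.70), they overlapped them.

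The 3 genes were also summed over all cells within the collagen limit, in UMIs of a gene per 1000000 UMIs (CPM). Cd3g was at 80.4, 338 and 550.1 CPM in WT DN1, DN2a and DN2b and at 26.0, 142 and 444 CPM in ΔTE. Cd3d followed at 5.86, 39.1 and 89.3 CPM in WT and 2.93, 15.1 and 80.2 CPM in ΔTE, and Cd3e at 6.03, 27.9 and 39.9 CPM in WT and 2.07, 13.4 and 21.4 CPM in ΔTE. The ΔTE value was below that of WT for each gene and start, but for Cd3d the exact Poisson intervals overlapped from DN2b (78.2 to 102 in WT and 67.3 to 95 in ΔTE) and from DN1 (4.06 to 8.18 and 1.71 to 4.69). In such sums fewer expressing cells and less RNA per cell cannot be told apart.

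Genes that were not part of the rule set the Cd3-expressing cells apart by degree, and few did so by much. Each of 11193 genes with at least 50 UMIs was compared with the Cd3-zero cells of the same library by a library-stratified ratio, and a gene was counted as higher or lower when it differed at least 2-fold and in the same direction in all 6 libraries. By this count 8 genes were higher, 0.0715% of those compared, and 228 were lower, 2.04%, with a median log2 ratio over all genes of -0.05. At any size of difference, 1.93% of the genes compared were higher in all 6 libraries and 6.89% were lower in all 6. The agreement of libraries given for single genes below stands beside these shares. Of the 228 lower genes, 215 had 0 UMIs in the 31 ΔTE DN1 cells, as had 5593 of all genes compared, so a count of 0 in that small library decided the direction there. Among the 7243 genes for which at least 20 UMIs were expected in the Cd3-expressing cells, 5 were higher and 35 lower. With Cd3-zero cells drawn to match the UMI totals of the Cd3-expressing cells, 60 of 8947 genes were lower, 0.671%. That draw also cut the number of Cd3-zero cells, so depth and cell number changed together and their separate parts were not tested. Without ΔTE DN1 the counts were 30 and 248. The same cells were chosen and compared, so these counts describe the cells and are no test.

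The 8 higher genes were Mcub, Ctla4, Lig4, Sidt1, Gbp8, Ltb, Ndufaf3 and 5830411N06Rik, with log2 ratios of 1.39 (0.99 to 1.79) for Mcub, which encodes a subunit of the mitochondrial calcium uniporter, down to 1.05 (0.83 to 1.26) for 5830411N06Rik. Ctla4, the inhibitory receptor of activated T cells, had 131 UMIs in the Cd3-expressing cells and a log2 ratio of 1.30 (1.04 to 1.57). Lig4, the ligase that joins DNA ends in antigen receptor rearrangement, stood at 1.29 (0.80 to 1.78) on 40 UMIs, and Ltb, which encodes lymphotoxin β, at 1.12 (0.53 to 1.71) on 26. Mcub, Ctla4, Sidt1, Gbp8 and 5830411N06Rik were the 5 that also had at least 20 expected UMIs.

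The lowest gene was Mpo, the myeloperoxidase of granulocyte precursors, with 2 UMIs in the Cd3-expressing cells against 1931 in the Cd3-zero cells and a log2 ratio of -4.13 (-6.13 to -2.14). The next 4, Mcpt8, a basophil protease (-3.59, -6.46 to -0.73), Raph1 (-2.99, -5.86 to -0.13), Trpm2 (-2.92, -5.76 to -0.07) and Il1r1, an interleukin-1 receptor (-2.85, -5.69 to -0.01), rested on 1 UMI each, and their intervals reach close to 0. As a list, 7 of 17 myeloid genes compared were lower and 0 higher, beside 2.04% lower and 0.0715% higher over all genes. The list had a median log2 ratio of -1.30, genes at 0 UMIs being set at 3 counts, against -0.05 for all.

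Of the remaining receptor components, Cd247 was higher with Cd3g, Cd3d and Cd3e, though less than 2-fold over the libraries together. Cd247 encodes the ζ chain, which completes the CD3 complex and also serves NK cell receptors. In WT DN1, DN2a and DN2b it was at 221, 318 and 304 CPM in the Cd3-expressing cells against 50.2, 149.6 and 270.4 CPM in the Cd3-zero cells, and in ΔTE at 137, 323 and 409 CPM against 52.4, 177 and 371 CPM. It was thus higher in all 6 libraries, by a log2 ratio of 0.65 (0.49 to 0.82), with the narrowest gaps after the DN2b start. Ptcra, the pre-Tα chain that pairs with the first rearranged receptor chain, was at 19.1 CPM (11.5 to 29.9) against 1.11 CPM (0.751 to 1.59), a log2 ratio of 3.36 (2.47 to 4.26), but on 19 UMIs that came from 4 libraries, 0 of them from a DN1 start. It fell short of the 20 UMIs set for naming a listed gene and was picked after its values were seen. The constant regions of the receptor chains were not analysed here.

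Of 14 genes of proximal receptor signalling, 0 passed the 2-fold limit in either direction, with a list median of 0.21. Over all genes 0.0715% passed as higher and 2.04% as lower, so 0 in a short list is not read as a result. Lck, the kinase that phosphorylates CD3 and ζ chains, was at 152 to 345 CPM in the Cd3-expressing cells of the 6 libraries against 123 to 221 CPM in Cd3-zero cells and higher in all 6, with a log2 ratio of 0.51 (0.34 to 0.69). The adaptors Lat (0.47, 0.25 to 0.68) and Skap1 (0.48, 0.28 to 0.68) and Themis, needed for thymocyte selection (0.54, 0.23 to 0.85), were each higher in 5 of 6 libraries. The exchange factor Rasgrp1 (0.41, 0.14 to 0.69) was higher in 6 of 6, whereas the adaptor Lcp2 lay at -0.35 (-0.60 to -0.10). Zap70, Cd28, Cd2 and Cd6, which come up with receptor signalling or in mature T cells, had 3, 13, 1 and 2 UMIs in all Cd3-expressing cells and are too low to compare.

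Bcl11b, the zinc finger factor that is needed for T-lineage commitment, was the clearest of the regulators. Its level in the Cd3-expressing cells was 483, 1018 and 1198 CPM in WT DN1, DN2a and DN2b and 592, 632 and 745 CPM in ΔTE, against 222, 554 and 806 CPM and 84.6, 255 and 494 CPM in the Cd3-zero cells. The ratio stood at 0.80 on the log2 scale (0.70 to 0.90), with a mean of 1.21 ± 0.83 (SD, n = 6 libraries), and the gap was widest in ΔTE DN1. Ets1, an ETS factor, was higher in all 6 libraries too (0.81, 0.54 to 1.08), as were Satb1 (0.38), a chromatin organiser, Tcf12 (0.25), an E protein, and Runx1 (0.25). Tcf7, which encodes the early Notch-induced factor TCF-1, did not stand out, at -0.12 (-0.26 to 0.01), and Gata3 was at -0.23 (-0.45 to -0.02) and higher in 3 of 6 libraries. Tox (-0.51, -0.62 to -0.39) and Ikzf2, which encodes Helios (-0.69, -0.87 to -0.51), were lower in all 6, as were 6.89% of all genes compared. Over the 21 factors, 0 passed 2-fold, beside 0.0715% higher and 2.04% lower over all genes, and the median log2 ratio was 0.20.

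Of 8 genes of Notch signalling 0 passed the 2-fold limit, beside 0.0715% higher and 2.04% lower over all genes, and 6 had ratios above 0. Notch1, the receptor that drives T-lineage entry on OP9-DL1, was at 207, 498 and 491 CPM in WT and 501, 388 and 454 CPM in ΔTE, against 201, 303 and 276.5 CPM and 168, 248 and 255 CPM in Cd3-zero cells. It was higher in all 6 libraries (0.74, 0.60 to 0.88), though by very little in WT DN1. Notch3 (0.87, 0.39 to 1.35), itself a Notch target, was higher in 6 of 6, and Dtx1, a ubiquitin ligase induced by Notch (0.81, 0.50 to 1.13), in 5 of 6. Uaca had a log2 ratio of 1.87 (1.18 to 2.55) on 21 UMIs. The targets Hes1 (0.17, -0.22 to 0.56) and Myc (-0.01) showed no such gap. The list had a median of 0.55 and a summed log2 ratio of 0.57 (0.47 to 0.67), higher in 5 of 6 libraries and lower in WT DN1, where the sum was 455 CPM against 495 CPM.

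The genes that rearrange antigen receptors had the highest list median, 1.27 over 7 genes, of which Lig4 passed the limit, beside 0.0715% higher over all genes. Dntt encodes terminal deoxynucleotidyl transferase, which adds bases at receptor gene junctions. It was at 27.6, 119 and 165 CPM in WT and 0, 122 and 281 CPM in ΔTE, against 5.5, 31.9 and 60.1 CPM and 5.3, 26.5 and 81.7 CPM in Cd3-zero cells, giving 1.76 (1.49 to 2.03). It was higher in 5 libraries and at 0 UMIs in the 31 cells of ΔTE DN1. Rag1 (1.5, 0.97 to 2.02) and Rag2 (1.27, 0.75 to 1.79), the recombinase subunits, rested on 35 UMIs each and were likewise higher in 5 of 6 libraries. Of the DNA repair factors that complete the joining, Xrcc6 was at 0.57 (0.31 to 0.82), Xrcc5 at -0.31 and Prkdc at -0.01.

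Among the surface markers used to stage thymocytes, Thy1 was at 635, 832 and 795 CPM in WT and 911, 855 and 1053 CPM in ΔTE, higher than in the Cd3-zero cells of every library, with a log2 ratio of 0.63 (0.53 to 0.73). Cd24a (0.68, 0.54 to 0.83) and Il2ra, which encodes CD25 (0.24, 0.19 to 0.29), were also higher in 6 of 6. Kit (-0.47, -0.69 to -0.25) and Cd44 (-0.52, -0.83 to -0.21), both of which decline as DN2 cells mature, were each lower in 5 of 6, and Cd7 (-0.50, -0.87 to -0.13) in 6 of 6. None of the 10 genes compared passed the 2-fold limit, beside 0.0715% higher and 2.04% lower over all genes.

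**Figure D2:**
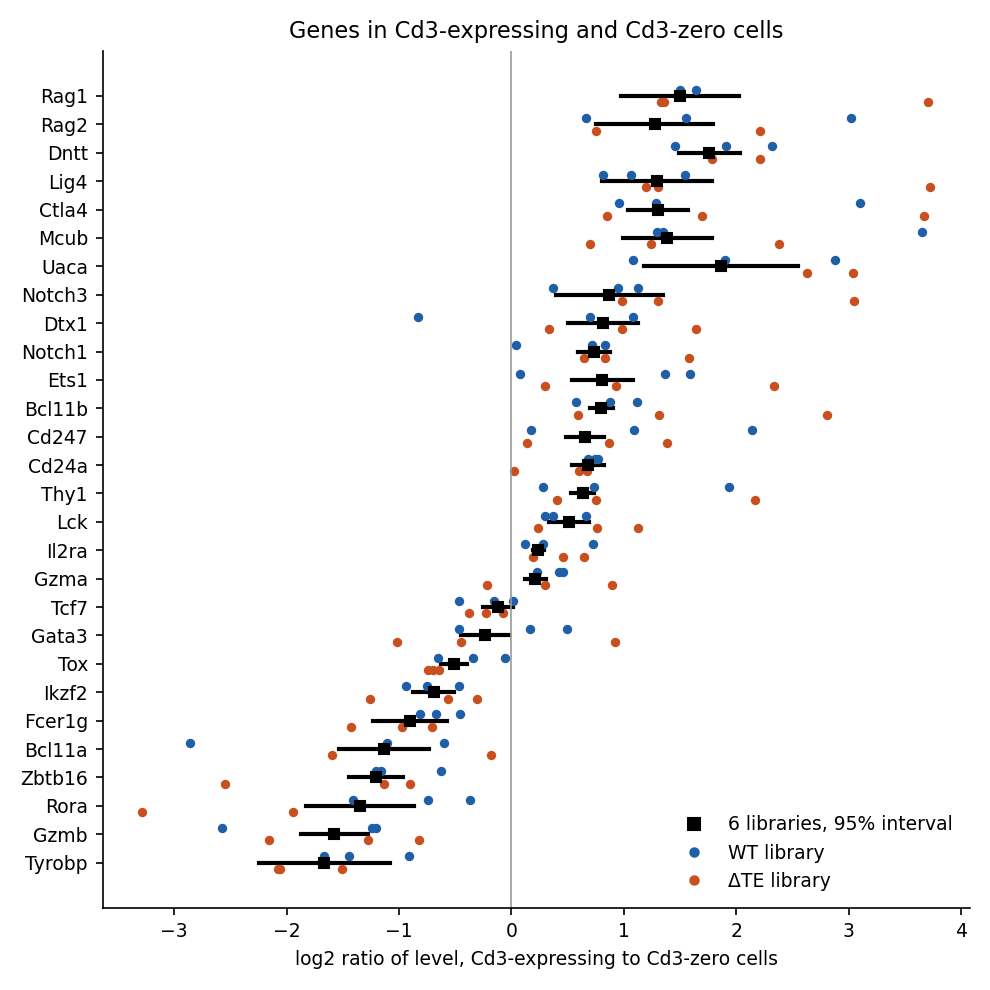
Log2 ratio of Cd3-expressing to Cd3-zero cells (x axis) for 28 listed genes (y axis), as the library-stratified value with its 95% interval (black squares) and as the 6 single-library ratios (blue WT, orange ΔTE), where libraries with 0 UMIs are not drawn. Dntt, at 1.76, lies right of Rag1 and Rag2, Bcl11b, Notch1 and Thy1 lie between 0.63 and 0.80, and Gzmb and Tyrobp, at -1.57 and -1.66, lie farthest left.

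Genes of ILC and NK cells were divided. Zbtb16 was at 179, 122 and 106 CPM in WT and 182, 287 and 81.7 CPM in ΔTE Cd3-expressing cells, against 276.5, 282 and 237 CPM and 399, 536 and 477 CPM in Cd3-zero cells. It was lower in every library and passed the 2-fold limit (-1.21, -1.45 to -0.97). Gzmb, which encodes the cytotoxic protease granzyme B, was at 96.6, 101 and 40.3 CPM in WT and 137, 64.6 and 199.7 CPM in ΔTE against 222 to 482 CPM, and also passed (-1.57, -1.87 to -1.27). So did Tyrobp, the adaptor of activating NK and myeloid receptors (-1.66, -2.25 to -1.08), and Rora, a factor of group 2 ILCs (-1.34, -1.82 to -0.87). Fcer1g, another such adaptor, was lower in 6 of 6 libraries without reaching 2-fold (-0.90, -1.23 to -0.57). Gzma, granzyme A, went the other way, at 0.21 (0.12 to 0.30) and higher in 5 of 6. Id2, a regulator that ILCs need, showed no clear gap, at -0.13 (-0.51 to 0.25). In all, 4 of 25 ILC and NK genes were lower and 0 higher, with a median of -0.43, beside 2.04% lower and 0.0715% higher over all genes.

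Among 14 progenitor genes 2 were lower and 0 higher (median -0.65), beside the same 2.04% and 0.0715% over all genes, Bcl11a at -1.13 (-1.53 to -0.73) among them. The γδ T cell genes gave no common direction. Sox13, a factor of γδ cells that make IL-17, was at 1.12 (0.78 to 1.45) and higher in 4 of 6 libraries, Cd163l1, a scavenger receptor of γδ cells, at 0.51 (0.27 to 0.75), and Maf at -1.03 (-1.51 to -0.55). Of the cell cycle genes, the 16 of S phase had a median of 0.04, and the 16 of G2 and M phase, which include Top2a and Mki67, had a median of 0.17 and a summed ratio of 0.18 (0.14 to 0.22) that was above 0 in 6 of 6 libraries. Kmt2a and Ube4a, which lie next to the Cd3 genes on chromosome 9, were at 0.28 (0.15 to 0.40) and 0.42 (0.18 to 0.66).

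Markers of other cell types were measured as sums. Myeloid genes reached 110, 47.7 and 51.3 CPM in WT and 91.1, 14.4 and 27.2 CPM in ΔTE, against 616, 116 and 60.1 CPM and 481, 130 and 52.3 CPM in Cd3-zero cells, and of 18 listed genes Ctsg had the most UMIs in these cells, 14, Mpo had 2, and Elane, S100a8, Cd74 and Ms4a3 had 0. Feeder genes were at 27.2 to 124 CPM against 76.6 to 183 CPM, and in WT DN1 at 124 against 119 CPM. B lineage genes were at 0 to 41.4 CPM against 13.8 to 38.7 CPM and higher in 3 of 6 libraries. Summed ILC and NK genes, on the other hand, were at 2019 to 3160 CPM against 2170 to 4557 CPM in Cd3-zero cells, of which Gzma alone made 762 to 1640.3 CPM in the Cd3-expressing cells. Against the label of T-lineage cells, the fixed lists were thus mixed. Ratios were above 0 for 5 of 7 recombination genes, 6 of 8 Notch genes, 7 of 10 surface markers, 8 of 14 signalling genes and 11 of 21 T-lineage factors, Tcf7, Gata3, Tox and Ikzf2 being below, and 1 of these genes, Lig4, passed the limit. Over all genes the median log2 ratio was -0.05 and 0.0715% passed as higher. Counts such as 8 of 14 and 11 of 21 are therefore not read as a result about the label. Cd4 and Cd8a were too low to compare.

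The same pattern was present at each Cd3 count. Relative to Cd3-zero cells of the same library, Bcl11b stood at 0.60 (0.51 to 0.68) in cells with 1 Cd3 UMI, 0.73 (0.60 to 0.86) with 2, 0.68 with 3 and 1.14 (0.94 to 1.34) with 4 or more. Dntt was at 1.45, 1.62, 1.97 and 1.85 and Notch1 at 0.46, 0.70, 0.72 and 0.90. Zbtb16 was at -0.79, -1.04, -1.84 and -1.11 and Gzmb at -1.42, -1.74, -1.80 and -0.92, whereas Tcf7 and Gata3 stayed between -0.27 and -0.04 throughout. Cells just outside the limit, with 1 UMI, therefore resembled those just inside it, with 2. Median depth moved with the class, from 427 UMIs in Cd3-zero cells to 439, 473, 509 and 555.

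**Figure D3:**
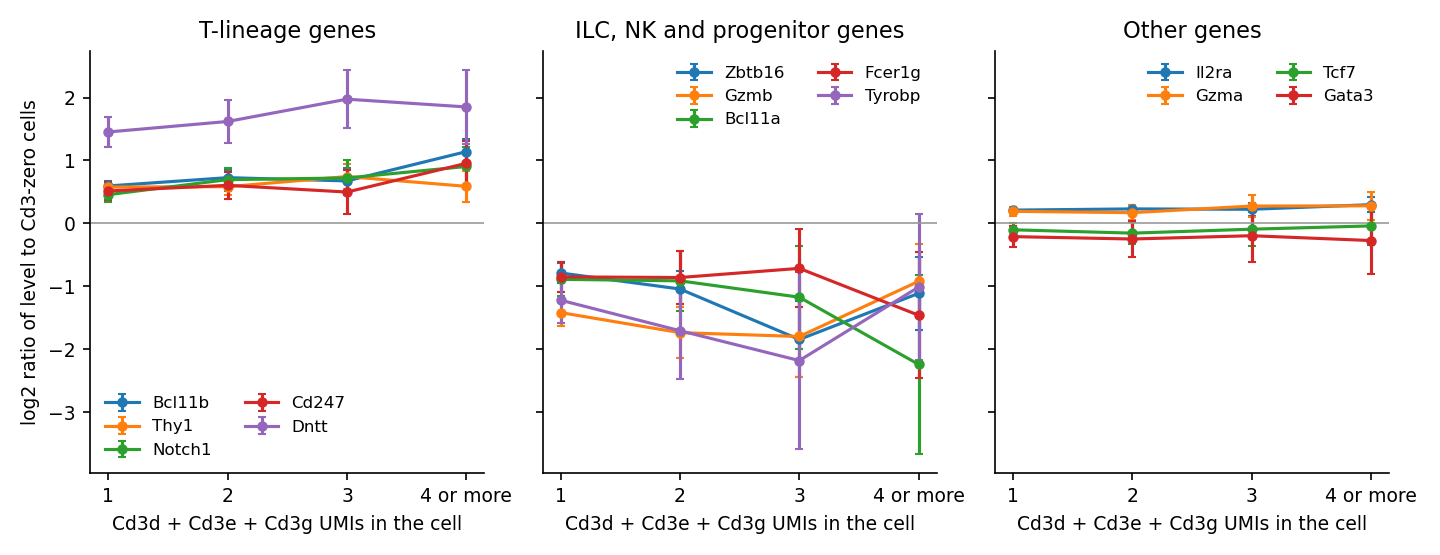
Log2 ratio to Cd3-zero cells, stratified by library (y axis), for cells with 1, 2, 3 and 4 or more Cd3 UMIs (x axis), in panels for T-lineage genes, ILC, NK and progenitor genes, and other genes, with 95% intervals. Bcl11b goes from 0.60 to 1.14 and Dntt from 1.45 to 1.85, Zbtb16 is below 0 in every class, and Tcf7 stays near 0.

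Detection in single cells was compared with Cd3-zero shares weighted by the libraries that the Cd3-expressing cells came from, since pooled shares mix unlike libraries. At least 1 Bcl11b UMI was present in 35.9% of Cd3-expressing cells against 19.3% of Cd3-zero cells so weighted, and at least 1 Zbtb16 UMI in 6.40% against 11.9%. Bcl11b without Zbtb16 was seen in 33.5% against 17.2%, Zbtb16 without Bcl11b in 3.99% against 9.73%, both in 2.42% against 2.13%, and neither in 60.1% against 70.9%. After thinning each cell to 300 UMIs (1467 and 44298 cells left), Bcl11b was found in 23.9% (21.7 to 26.1) against 13.3% and Zbtb16 in 3.54% against 8.22%, so the directions were the same at equal depth. By library, Bcl11b was detected in 22.2%, 37.3% and 45.9% of Cd3-expressing WT cells from DN1, DN2a and DN2b, against 9.56%, 18.4% and 29.6% of Cd3-zero cells. In ΔTE it was 32.3%, 26.7% and 29.1% against 3.92%, 10.7% and 18.4%.

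Other genes were compared in the same way. Dntt was detected in 7.73% of Cd3-expressing and, weighted as above, 1.88% of Cd3-zero cells (4.43% and 1.30% after thinning), and Thy1 in 37.0% and 20.9% (20.7% and 14.5%). Il2ra was found in 78.0% and 65.6% (62.4% and 54.1%), Gzma in 37.2% and 27.8% (23.1% and 20.1%) and Tyrobp in 1.27% and 3.40% (0.55% and 2.22%). At least 2 UMIs of 10 ILC and NK genes (Il2rb, Icos, Rora, Klrd1, Klrb1c, Ncr1, Tbx21, Eomes, Il1rl1, Il18r1) were present in 12 Cd3-expressing cells, 0.725%, against 1.80%. In WT DN2a this went the other way, at 0.589% against 0.407%. Of the 12 myeloid genes 3 or more UMIs were seen in 0 of 1656 cells, where the libraries' Cd3-zero shares would give 3.94 cells.

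Cells were also compared with other sets chosen by marker genes that held at most 1 Cd3 UMI. Against 583 cells with 2 or more UMIs of the 10 ILC and NK genes, Cd3-expressing cells had higher Notch1 (log2 ratio 2.43, 1.86 to 2.99), Bcl11b (1.60, 1.28 to 1.92), Gzma (1.21), Il2ra (1.14) and Thy1 (1.03). They had lower Gzmb (-4.16, -4.52 to -3.79), Tyrobp (-3.39), Zbtb16 (-2.84, -3.16 to -2.53), Id2 (-2.84), the inhibitor of E proteins that ILCs need, and Gata3 (-2.24). Cd163l1 was also lower than in that set, at 150 against 457 CPM (-1.12, -1.47 to -0.77). Cd247, at -0.06 (-0.39 to 0.28), and Ets1, at -0.07, did not separate the sets. Against 134 cells with 2 or more UMIs of Rag1, Rag2 and Dntt, the values were near 0 for Bcl11b (0.19, -0.20 to 0.58), Notch1 (-0.19, -0.66 to 0.29), Cd247 (-0.02) and Gzma (0.08), while Thy1 was at -0.33 (-0.65 to -0.01) and Ets1 at -0.59. These sets were chosen by genes of the same cells after the data had been seen, so the ratios are descriptions.

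The share of Cd3-expressing cells was also taken apart by whether Bcl11b RNA was seen in the cell. Among cells with a Bcl11b UMI, 2.41%, 7.19% and 12.2% of WT and 2.37%, 4.65% and 8.42% of ΔTE cells from DN1, DN2a and DN2b were Cd3-expressing. Relative to WT, ΔTE shares were at -0.02 (-1.06 to 1.02), -0.63 (-1.03 to -0.23) and -0.54 (-0.94 to -0.13) on the log2 scale. Among cells without one, the shares were 0.947%, 2.98% and 6.92% in WT and 0.216%, 1.64% and 5.20% in ΔTE, with ratios of -2.13 (-2.82 to -1.45), -0.86 (-1.12 to -0.60) and -0.41 (-0.71 to -0.12). From DN2a and DN2b the share was therefore lower in ΔTE in both kinds of cell, and the difference between the kinds was not tested.

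Within the Cd3-expressing cells, Bcl11b itself was lower in ΔTE from the DN2 starts. From ΔTE over WT, its log2 ratio was 0.29 (-0.75 to 1.25) from DN1, -0.69 (-1.04 to -0.35) from DN2a and -0.69 (-1.05 to -0.33) from DN2b, or -0.63 (-0.87 to -0.40) over the starts. In Cd3-zero cells it was -1.07 (-1.13 to -1.0), and the values differed by 0.43 (0.19 to 0.68). By start the Cd3-zero values were -1.39 from DN1, -1.12 from DN2a and -0.71 (-0.84 to -0.57) from DN2b, so from DN2b the value lay within the counting interval of the Cd3-expressing cells (-1.05 to -0.33), and from DN2a the intervals met at their ends (-1.04 to -0.35 and -1.21 to -1.03). Bcl11b was not lower in ΔTE from DN1, so it did not count among the genes with 1 direction. Without the DN2a start its ratio was -0.58.

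Across 2224 genes with at least 100 UMIs, 10 were higher in ΔTE Cd3-expressing cells, 0.45%, and 92 lower, 4.14%, by at least 1.5-fold, in all 3 starts and without any 1 well, with a median log2 ratio of -0.09. The split depended on the scaling. With mitochondrial and ribosomal protein genes left out of the totals it was 30 higher and 61 lower, and the median moved to -0.01. Without the DN2a start it was 19 and 32 of 765 genes, and without the DN1 start 17 and 108 of 2012. The ΔTE DN1 cells held 22037 UMIs in all, and 13 of the 92 lower genes had 0 of them, as had 104 of the 2224 genes compared. The 95% interval lay wholly below 0 for 76 of the 92 and wholly above 0 for 10 of the 10. Mitochondrial RNA moved with genotype in the DN2a libraries, as given above, and its part in these counts was not tested.

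Mid1, an X-linked ubiquitin ligase gene, was the lowest. It had 64, 136 and 121 UMIs in WT Cd3-expressing cells from DN1, DN2a and DN2b, or 883, 361 and 443 CPM, and 1, 6 and 4 UMIs in ΔTE, or 45.6, 43.1 and 36.3 CPM. The groups did not overlap, and the log2 ratio of -3.43 (-4.30 to -2.56) was close to that in Cd3-zero cells, -3.31 (-3.41 to -3.21), and was -3.78 without the DN2a start. The next 4 were Limd2 (-1.30, -2.03 to -0.56), Traf3, a signalling adaptor (-1.19, -1.95 to -0.42), Kdm6a, an X-linked histone demethylase (-1.12, -1.77 to -0.47), and Itpkb, an inositol trisphosphate kinase (-1.12, -1.78 to -0.47). Their ratios in Cd3-zero cells were -0.22, -0.29, -0.32 and -0.09, and without the DN2a start -0.90, -1.17, -0.94 and -1.14 in the Cd3-expressing cells. Of the 92 lower genes 8 were on the X chromosome, 8.70%, as were 56 of the 2224 compared, 2.52%. Summed UMIs of the Y-linked Ddx3y, Uty, Kdm5d and Eif2s3y, which follow the mix of male and female donors, were at 235, 129.9 and 154 CPM in WT and 228, 194 and 209 CPM in ΔTE Cd3-expressing cells. In Cd3-zero cells they were at 136, 142 and 153 CPM in WT and 202, 211 and 158 CPM in ΔTE. These genes were picked after the X-linked ones had been seen, and the part of donor sex in these values was not tested.

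Cd163l1 was the highest, at 55.2, 84.8 and 165 CPM in WT and 137, 251 and 272 CPM in ΔTE. It was higher in ΔTE from each start (1.13, 0.67 to 1.59), as in Cd3-zero cells (1.33), and the ratio without the DN2a start was 0.77. The next 4 were Ide (0.78, 0.36 to 1.20), the insulin-degrading enzyme, Pdia4 (0.76, 0.18 to 1.33), a chaperone of the endoplasmic reticulum, Gusb (0.74, 0.16 to 1.32), the lysosomal β-glucuronidase, and Ndufs4 (0.73, 0.18 to 1.29), a subunit of respiratory complex I. Without the DN2a start they were at 1.35, 0.66, 0.69 and 1.04.

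Of the listed genes, Cd163l1 was higher and Runx2 (-0.79, -1.40 to -0.18) and Aspm (-0.84, -1.49 to -0.19), a spindle protein gene, were lower by this count, at -1.40 and -0.80 without the DN2a start. Gzma was higher in ΔTE from each start, at 1640.3, 1228 and 1280.2 CPM against 773, 1052 and 762 CPM (0.49, 0.30 to 0.68), short of 1.5-fold over the starts and at 0.81 without DN2a. Zbtb16 was at 0.02 (-2.05 to 1.72) from DN1, 1.24 (0.59 to 1.88) from DN2a and -0.38 (-1.64 to 0.74) from DN2b. Its value over the starts, 0.70 (0.21 to 1.19), therefore rested on DN2a, and without that start it was -0.26. In Cd3-zero cells it was 0.78. Of the other T-lineage genes, 0 counted as higher or lower, beside 0.45% higher and 4.14% lower over the 2224 genes. Among those with at least 20 UMIs, Ly6d (2.66, 1.70 to 3.63), Cd7 (1.04, 0.31 to 1.77), Lef1 (0.81, 0.03 to 1.59), Themis (0.64, 0.02 to 1.25) and Thy1 (0.23, 0.02 to 0.44) had intervals above 0, the first 4 on 42 to 92 UMIs and so outside the 2224 genes, and Cd44 (-1.31, -2.23 to -0.39, on 85 UMIs), Il2ra (-0.13, -0.24 to -0.02) and Runx1 (-0.15, with an upper bound just under 0) had intervals below 0. For Cd247 the ratio was 0.17 (-0.19 to 0.52), for Dntt 0.43 (-0.07 to 0.94) and for Notch1 -0.15 (-0.46 to 0.15). Without the DN2a start Notch1 was at 0.07, Dntt at 0.72, Lef1 at 1.21, Thy1 at 0.42 and Il2ra at -0.02. Ly6d was then at 2.60, Cd7 at 1.31, Themis at 0.84, Cd247 at 0.32, Runx1 at -0.20 and Cd44 at -1.71.

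**Figure D4:**
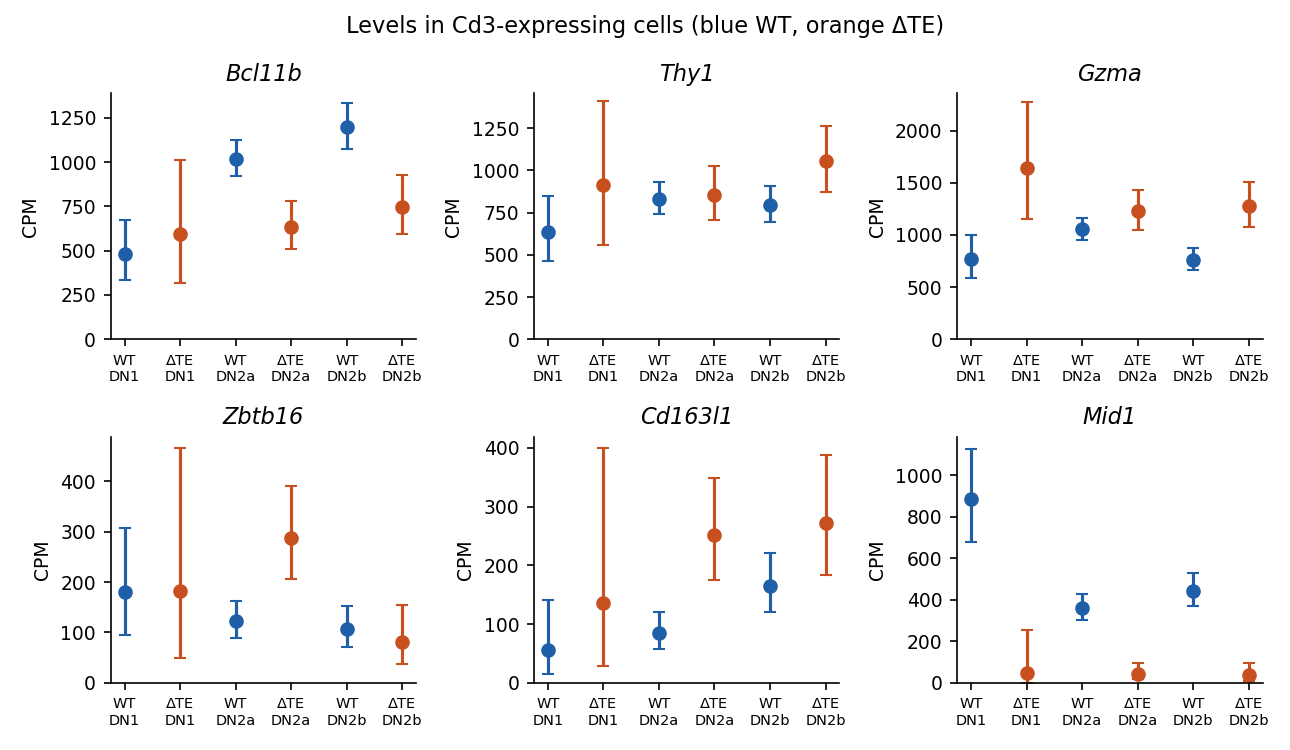
Level in Cd3-expressing cells, in CPM with 95% exact Poisson intervals (y axis), of Bcl11b, Thy1, Gzma, Zbtb16, Cd163l1 and Mid1 in each of the 6 libraries (x axis). Bcl11b is lower in ΔTE than in WT from DN2a and DN2b, 632 against 1018 and 745 against 1198 CPM, Cd163l1 is higher from each start, and Mid1 stays at or below 45.6 CPM in ΔTE against 361 CPM or more in WT.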

How the data were processed

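Deposited UMI counts per gene and cell from the authors were used as raw counts; their tables were sci-RNA-seq3 matrices for which the submitters' notes name the genome build mm9, and the aligner is not given in the sources used here. Coordinates come from GENCODE annotation of GRCm38 by Ensembl identifier (27924 of 28048 matched). Doublets were limited only by the 2000-UMI maximum, without a caller. Counts were summed per library and cell set, and CPM totals used the 13599 genes seen in at least 15 filtered cells, without the 7 genes of the rule. Ratios are Mantel-Haenszel ratios stratified by library or start, with 95% Greenland-Robins intervals; single levels have exact Poisson and shares exact Clopper-Pearson intervals, and the 1 p-value, on shares, is an exact permutation of genotype within starts, as each condition had 1 library. Genes at 0 UMIs were ranked at a floor of 3 counts. Counting error alone can place a gene past the limits: on simulated data unchanged genes were also counted, more often as lower than as higher. Named genes were those of the lists with at least 20 UMIs, the 10 highest and 5 lowest of Cd3-expressing against Cd3-zero cells, and the 5 highest and 5 lowest by genotype. The members and lists were chosen with earlier results of these data known. The floor, the limit on expected UMIs, that permutation test, the weighting of Cd3-zero shares by library, the feeder-type, myeloid, ILC and NK, and Rag or Dntt cell sets, the classes by Cd3 UMIs, the motifs and the Y-linked genes were chosen after seeing the data. Alternatives changed 1 choice at a time. Python 3.11.15, numpy 2.4.6, scipy 1.17.1, pandas 2.3.3, R 4.3.3 and edgeR 4.0.16 (TMM factors only) were used.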

Additional observations from a re-analysis of the deposited data

Results flagged for a closer look

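Barcodes outside the filters also held Cd3 transcripts. Of 374 barcodes with over 2000 UMIs, 46 had 2 or more Cd3 UMIs, 12.3% (9.15 to 16.1), from 3.92% in ΔTE DN2a to 38.3% in WT DN2b, at a median of 2364 UMIs. Of 17371 barcodes with over 30% mitochondrial UMIs and at most 2000 UMIs, 660 had 2 or more, 3.80% (3.52 to 4.09). The latter were unevenly spread, with 301 such barcodes in WT DN2a and 3169 in ΔTE DN2a, of which 9 and 59 held 2 or more Cd3 UMIs. From DN2b, 221 of 2391 WT barcodes (9.24%) and 288 of 3456 ΔTE barcodes (8.33%) did. Neither set entered the comparisons, and doublets among barcodes of high UMI count were not tested for.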

How the results depend on the processing

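The log2 ratio of ΔTE to WT shares stayed below 0 under every alternative run. With at least 1 Cd3 UMI it was -1.26 from DN1 and -0.27 from DN2b, thinned to 300 UMIs -1.13 from DN2a, and with at most 20% mitochondrial UMIs -2.68 from DN1. Leaving out each well gave -2.05 to -1.62, -0.93 to -0.86 and -0.68 to -0.42 for DN1, DN2a and DN2b. A looser mitochondrial limit was not run. Among the DN2b barcodes above that limit the shares were 9.24% (8.11 to 10.5) in WT and 8.33% (7.43 to 9.30) in ΔTE, with overlapping intervals.

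Genes higher in Cd3-expressing than in Cd3-zero cells numbered 27 with sums pooled over libraries, 4 with UMIs of at least 2 of the 3 Cd3 genes, 0 with at most 20% mitochondrial UMIs (which left 5 cells in ΔTE DN1), and 5 with at least 20 expected UMIs, where 35 were lower. With Cd3-zero cells matched on UMIs 60 were lower. Leaving out each library gave 9 to 30 higher and 248 to 328 lower, with 30 higher without ΔTE DN1, 16 without WT DN2a, 15 without WT DN2b and 13 without WT DN1.

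By genotype within the Cd3-expressing cells, 30 were higher and 61 lower without mitochondrial and ribosomal protein genes, 78 and 277 at 50 UMIs, 6 and 23 with at least 3 Cd3 UMIs, 2 and 7 with 2 of the 3 genes, 21 and 59 with at most 20% mitochondrial UMIs, and 19 and 32 without the DN2a start. Without the DN1 start 17 were higher. Leaving out each well gave 6 to 25 higher and 65 to 113 lower, the extremes being 6 without WT DN2a well 2, 25 without ΔTE DN2a well 1 and 18 without ΔTE DN2a well 3. The settings without a start and that of expected UMIs were chosen after seeing the data. Fewer cells or genes enter several of these, and otherwise the cause was not tested. Of 2147 values for single genes against Cd3-zero cells 141 left the interval of the value reported, as did 109 of 3913 by genotype.

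The labels carry no replicate numbers, so no replicate block was fitted, and genotypes were paired by start only. The 31 cells of ΔTE DN1 limit every comparison that requires agreement of all libraries, and 2 or 3 UMIs per cell limit what can be said of any single cell.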
